A study of Mus musculus with 12 samples.

Results

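Chromatin accessibility was examined at 7 mouse genes, namely Kdm1a, Rcor1, Hdac1, Hdac2, Hdac3, Ncor1 and Sin3a. These genes encode a histone demethylase and members of the complex it acts in or of other corepressor complexes. They are 7 of the 20661 autosomal protein-coding genes of the RefSeq annotation of GRCm38.p6, the assembly behind mm10. For each gene, every deposited peak that overlapped the gene body or the 50 kb on either side was taken, and peaks of the 12 libraries that overlapped by at least 1 bp were merged into regions. This gave 129 regions of the 144562 found on the 19 autosomes. Kdm1a was chosen because earlier results on these lists had shown fewer peaks near it in Baf60a KO cells given oxLDL, so its genotype and treatment contrasts are described with no test. The other 6 genes were chosen by function.

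ATAC-seq libraries, made by letting a transposase insert adapters into accessible DNA, came from bone marrow-derived macrophages. Smarcd1 encodes Baf60a, which belongs to the nucleosome remodeller SWI/SNF. In the ApoE KO cohort the groups were Baf60a KO given oxLDL, WT given oxLDL, KO untreated and WT untreated, with 2 libraries each. KO there means Baf60a f/f with Lyz2 Cre+, WT means Baf60a f/f with Lyz2 Cre-, and both carry the ApoE knockout. Lyz2 Cre is active in macrophages and other myeloid cells, and how complete the deletion was is not given. These cells were cryopreserved before a Nextera-based preparation. The Omni-ATAC cohort holds 1 library of each of the same 4 groups, labelled only Baf60a KO or WT, without an ApoE status. The oxLDL dose was 50 µg/ml for 48 h in both cohorts. Macrophages take up oxidised LDL (oxLDL) and become laden with cholesterol. Whether the 2 libraries of a group come from different animals or cultures is not in the labels, and p-values then reflect only the spread between these libraries, possibly technical.

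KDM1A (also called LSD1) removes methyl groups from a lysine of the histone H3 tail that marks active promoters and enhancers. It does so in the CoREST complex, where RCOR1 is the scaffold that lets it act on nucleosomes and where HDAC1 and HDAC2 remove acetyl groups from histones. HDAC1 and HDAC2 also serve the SIN3A complex and NuRD, while HDAC3 is activated by NCOR1 and its relative SMRT. In macrophages the NCOR1 and HDAC3 complex is known for holding inflammatory genes and nuclear receptor targets in check.

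Peak lists had 82177 to 141441 peaks in the Omni-ATAC cohort and 24397 to 44524 in the ApoE KO cohort. Longer lists hold more peaks near every gene, so counts are given in lists of equal length: the 82177 or 24397 best-scored peaks of each library of a cohort. The macrophage label was checked at 10 marker genes. All 10 had a peak at a gene boundary in all 4 Omni-ATAC libraries and 8 of 10 had one in all 8 ApoE KO libraries. Of the B cell and T cell markers, 1 of 6 in each list had such a peak in all 8 ApoE KO libraries, as did 1 of 6 neutrophil, 2 of 5 dendritic cell and 1 of 4 erythroid markers. In all 4 Omni-ATAC libraries these were 2 of 6 (B cell), 2 of 6 (T cell), 3 of 6 (neutrophil), 3 of 5 (dendritic cell) and 3 of 4 (erythroid), so the check separates lineages less there. The region at the Smarcd1 start was called in all 6 KO and all 6 WT libraries. Which exons were deleted is not given, so this does not check the genotype.

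The sequence before 4 of the starts is shown because the ApoE KO cohort's peak summits at Kdm1a and Rcor1 fall in it, as do most of those at Hdac2 and Sin3a. Each line is the 250 bases upstream of an annotated start from RefSeq (GRCm38.p6), 5′ to 3′ on the gene's strand. Capitals mark GGGCGG (the GC box bound by SP and KLF factors) and CCAAT (the NFY box), on either strand. The Kdm1a window is chr4:136602724-136602973 (minus strand), that of Rcor1 is chr12:111039117-111039366 (plus), that of Hdac2 is chr10:36974294-36974543 (plus) and that of Sin3a is chr9:57076126-57076375 (plus). The start used lies inside the annotated gene for Kdm1a (136602723, gene to 136602787), Hdac2 (36974544, gene from 36974297) and Sin3a (57076376, gene from 57071991). So part of the Kdm1a window, most of the Hdac2 window and all of the Sin3a window are within the gene.
Kdm1a: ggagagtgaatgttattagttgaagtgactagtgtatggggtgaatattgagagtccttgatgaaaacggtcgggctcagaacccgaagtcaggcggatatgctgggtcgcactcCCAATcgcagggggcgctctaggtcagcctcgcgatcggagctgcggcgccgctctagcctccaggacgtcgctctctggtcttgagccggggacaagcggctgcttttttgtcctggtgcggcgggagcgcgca
Rcor1: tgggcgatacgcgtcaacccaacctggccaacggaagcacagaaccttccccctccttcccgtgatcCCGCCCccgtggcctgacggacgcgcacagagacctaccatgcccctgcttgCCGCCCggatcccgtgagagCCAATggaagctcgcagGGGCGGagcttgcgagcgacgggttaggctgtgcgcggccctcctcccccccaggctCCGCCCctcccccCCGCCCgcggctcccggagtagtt
Hdac2: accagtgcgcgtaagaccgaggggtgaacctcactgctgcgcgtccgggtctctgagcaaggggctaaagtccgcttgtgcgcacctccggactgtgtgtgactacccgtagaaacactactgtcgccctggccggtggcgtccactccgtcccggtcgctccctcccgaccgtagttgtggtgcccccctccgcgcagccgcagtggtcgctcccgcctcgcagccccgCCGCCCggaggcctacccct
Sin3a: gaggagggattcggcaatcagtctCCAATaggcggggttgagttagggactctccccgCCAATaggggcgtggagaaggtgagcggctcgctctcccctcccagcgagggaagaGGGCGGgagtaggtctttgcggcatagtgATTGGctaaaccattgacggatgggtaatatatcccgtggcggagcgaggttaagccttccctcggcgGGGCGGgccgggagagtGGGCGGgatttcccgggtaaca
The Kdm1a window held 21 CpG dinucleotides at 59.2% GC and 1 CCAAT, from 135 to 131 bases before the start. It held no GC box. The other 3 windows held 25 (Rcor1), 27 (Hdac2) and 19 (Sin3a) CpG, against a median of 6 over the 32851 promoters of the table. The 250 bases upstream of the start were searched in all promoters, among them 7 annotated promoters of 5 of these genes. A GC box was present in 5 of the 7, against 32.7% of all promoters, and CCAAT in 4 of the 7, against 33.8%. TGACGTCA, GCGCATGC, GAGGAAGT, CACTTCCG, TGACTCA or TGAGTCA, and AAGATGGC were searched on both strands too and were in 0 of the 7. Those letters were in 1.5%, 2.3%, 2.4%, 2.5%, 4.5% and 1.6% of all promoters. A match describes the letters only.

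Kdm1a lies at chr4:136550533-136602787 on the minus strand, with Luzp1, Tex46, Lactbl1 and Ephb2 within 50 kb. Its neighbourhood held 24 regions, of which 10 were called in all 4 Omni-ATAC libraries and 3 in 7 or all 8 of the ApoE KO libraries. Those 3 are the region at the gene's own start (chr4:136601976-136603004), one inside the gene (chr4:136569915-136570707) and one in the downstream flank, inside Luzp1 (chr4:136505290-136506395). A region inside the gene near its start (chr4:136598193-136599055) was called in all 4 Omni-ATAC libraries and otherwise in 1 ApoE KO library, WT untreated replicate 2, at the 5.1st percentile of that library's scores. The remaining 20 regions had no peak in the ApoE KO cohort.

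**Figure D1:**
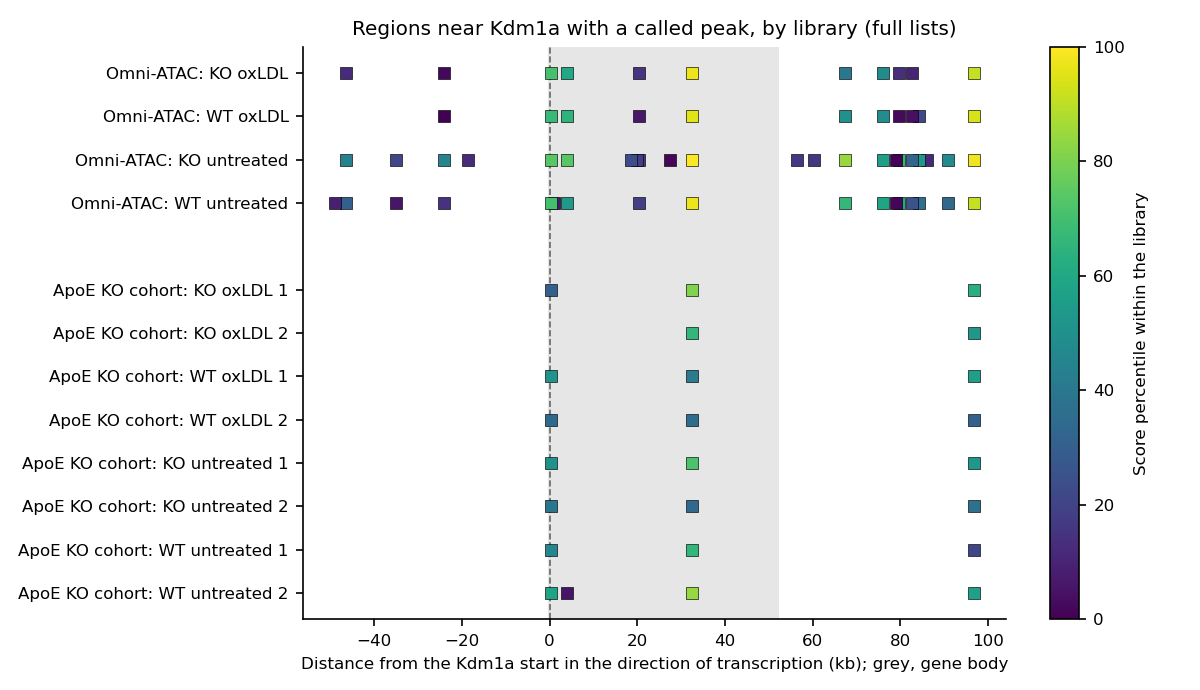
Regions near Kdm1a with a peak in each of the 12 full lists. The x axis is the distance of the region's centre from the Kdm1a start in kb in the direction of transcription, with the gene body in grey. Each row is a library and each square a region, coloured by the percentile of its best score among all peaks of that library. The ApoE KO rows hold the same 3 squares at the start, inside the gene and in the downstream flank, except that KO oxLDL 2 has none at the start and WT untreated 2 has 1 more inside the gene.

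In the ApoE KO cohort the Kdm1a peak missing in KO cells with oxLDL is the one at the gene's own start. In the full lists this region was called in 11 of 12 libraries and the library without it was KO oxLDL replicate 2 of the ApoE KO cohort. Its peak had a caller score of 52 in KO oxLDL replicate 1, against 83 and 53 in WT oxLDL. The scores were 114 and 68 in KO untreated and 77 and 141 in WT untreated libraries of the same cohort. So the KO oxLDL library with a peak had the lowest score of the 7, with WT oxLDL replicate 2 next to it.

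Scores grow with depth, so the percentile among all peaks of a library is given too. That percentile depends in turn on the length of the list. A ranking among regions called in all 12 libraries is not available for this start, which 1 library lacked. The Kdm1a start stood at the 30.3rd percentile in KO oxLDL replicate 1 of the ApoE KO cohort and had no peak in replicate 2, against 51.2 and 33.9 in WT oxLDL. It stood at 50.3 and 39.3 in KO untreated and 46.1 and 58.5 in WT untreated libraries. In the Omni-ATAC cohort it stood at 70.6 in KO oxLDL against 67.4 in WT oxLDL, and at 73.6 in KO untreated against 70.0 in WT untreated. There, KO was slightly above WT with either treatment, and the oxLDL libraries were slightly below the untreated ones. The KO and the untreated lists were also the longer ones in these pairs. Over the 17343 regions called in all 12 libraries, the median fitted difference in this percentile was 2.93 points for KO minus WT. For oxLDL minus untreated it was -3.29 points, so no direction particular to the Kdm1a start is read from it.

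In lists of equal length the start was called in 10 of 12 libraries and in neither KO oxLDL library of the ApoE KO cohort. The second loss is a matter of rank. In KO oxLDL replicate 1 the Kdm1a peak ranked 24821st from the top, just past the 24397 peaks kept, where the lowest score kept was 53. In KO untreated replicate 1 of the same cohort the start was just inside, at the 50.3rd percentile with the threshold at 45.2. With a minimum score of 50 in place of equal length, 11 libraries had the peak.

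**Figure D2:**
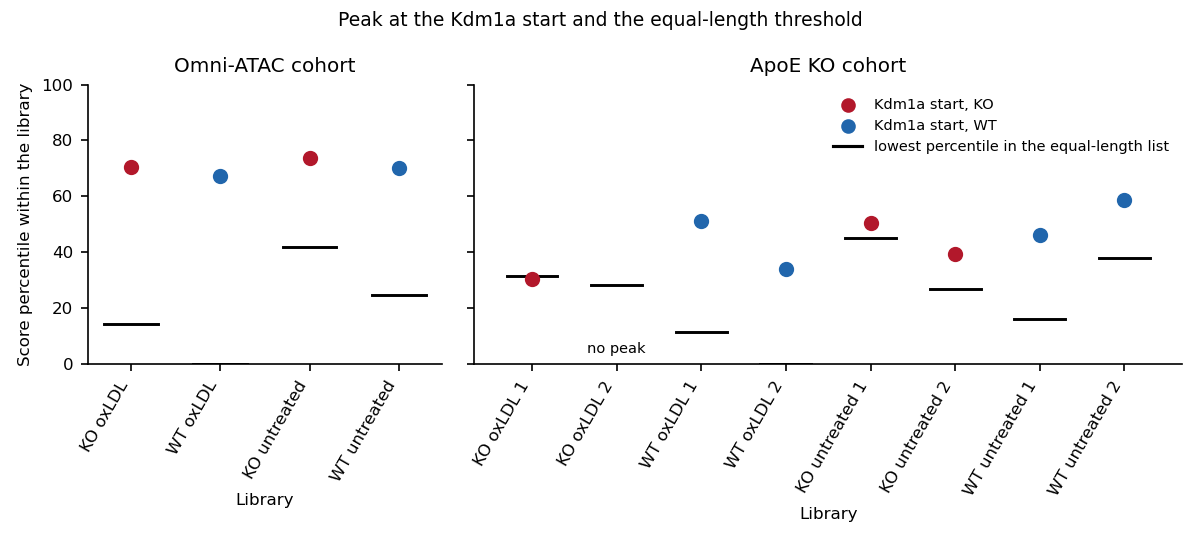
Score percentile of the peak at the Kdm1a start in each library (points, KO red and WT blue), with the lowest percentile kept in the equal-length list of that library (black line, at 0 in the shortest list of each cohort). The y axis is the percentile among all peaks of the library. The point of ApoE KO cohort KO oxLDL 1 (30.3) lies just under its line (31.4), and KO oxLDL 2 has no peak.

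Being called in the other 6 ApoE KO libraries and absent from both KO oxLDL libraries of equal length was the pattern of 1 of the 20 regions near the 7 genes that all 6 held, the Kdm1a start. Over the genome it was the pattern of 136 of 15793 such regions, or 0.861%. In the full lists 0 of 21 regions near the 7 genes were absent from both, against 0.268% of the 17926 regions of the genome that the other 6 libraries held, and 2 of 21 were absent from exactly 1 (2.14%). Both of those lacked replicate 2 (1.24%) and none lacked replicate 1 (1.43%). They are the Kdm1a start and a flank region near Hdac3, at the boundary of Fchsd1 (chr18:37968805-37970512). The pattern chose Kdm1a, so nothing is read from these counts.

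The peak at the Kdm1a start was also narrow in the ApoE KO cohort. It covered 213 bp in KO oxLDL replicate 1, against 368 and 289 bp in WT oxLDL, and 637 and 146 bp in KO untreated, against 183 and 720 bp in WT untreated libraries. Among the Omni-ATAC libraries it covered 1004 bp in KO oxLDL against 969 bp in WT oxLDL, and 1026 bp in KO untreated against 1009 bp in WT untreated. Its width thus ran from 146 to 720 bp in the ApoE KO cohort but only from 969 to 1026 bp in the Omni-ATAC cohort. The 7 summits in the ApoE KO cohort lay 13 to 56 bp upstream of the annotated start at 136602723, inside the sequence shown. The gene's annotated span reaches past them, to 136602787. Within this cohort the position thus moved little while score and width varied. The Omni-ATAC lists give no summits.

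The other 2 Kdm1a regions were present in both KO oxLDL libraries. The region inside the gene, the best-scored near Kdm1a, stood at the 80.8th and 65.9th percentile of the library in KO oxLDL of the ApoE KO cohort, against 41.4 and 35.2 in WT oxLDL. It stood at 71.6 and 33.6 in KO untreated, against 66.0 and 84.2 in WT untreated libraries. Ranked instead among the 17343 regions called in all 12 libraries, it was at 61.5 and 37.3 in KO oxLDL against 17.8 and 17.7 in WT oxLDL, and at 30.7 and 6.5 in KO untreated against 44.6 and 64.4 in WT untreated. On that ranking both KO libraries lay above both WT libraries with oxLDL and below both without it. With the Omni-ATAC protocol KO was above WT in both, at 86.0 against 80.7 with oxLDL and 96.1 against 84.9 untreated. The fitted difference between the 2 KO effects was 43.1 points (SE 15.9), given as a description. How many of all regions had the order seen in the ApoE KO cohort was not computed, so it is not read as a trait of this region.

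The region inside Luzp1 stood at 31.4 and 21.0 on the same ranking in KO oxLDL, against 33.0 and 13.6 in WT oxLDL, and at 6.3 and 8.2 in KO untreated, against 3.7 and 15.8 in WT untreated libraries of the ApoE KO cohort. KO and WT overlapped with either treatment. In the Omni-ATAC cohort it stood at 59.1 in KO oxLDL against 72.6 in WT oxLDL and at 84.6 in KO untreated against 54.3 in WT untreated. So of the 3 main Kdm1a regions, the start alone lacked a peak in a KO oxLDL library.

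Counted in lists of equal length, Kdm1a had 2 and 2 peaks in KO oxLDL of the ApoE KO cohort, against 3 and 3 in WT oxLDL, 3 and 3 in KO untreated and 3 and 3 in WT untreated. Among the Omni-ATAC libraries it had 7 in KO oxLDL against 11 in WT oxLDL, and 11 in KO untreated against 11 in WT untreated. The count for KO oxLDL was the lowest in each cohort. The Omni-ATAC peaks that WT oxLDL had and KO oxLDL lacked were 4 in the flanks, and the start was present in both. They are chr4:136518230-136518889, chr4:136519857-136520221 and chr4:136522880-136523230 inside Luzp1 and chr4:136626473-136627113 inside Lactbl1. The first had no peak in KO oxLDL and stood at the 21.7th percentile of the library in WT oxLDL. The other 3 had a peak in KO oxLDL, at 10, 14.0 and 2.2, against 3.9, 2.6 and 0.3 in WT oxLDL. Their percentiles were higher in the longer KO list but under its threshold of 14.3, while the WT oxLDL list, the shortest, was kept whole. Counted from the top of the list, these 3 lay past the 82177 peaks kept in KO oxLDL and within them in WT oxLDL. In full lists the Omni-ATAC difference was absent, with 11 in KO oxLDL and 11 in WT oxLDL, and 22 in KO untreated against 17 in WT untreated. Full lists of the ApoE KO cohort held 3 and 2 in KO oxLDL, 3 and 3 in WT oxLDL, 3 and 3 in KO untreated and 4 and 4 in WT untreated. In the model over all libraries the equal-length difference was -0.26 (SE 0.0396) for KO minus WT and for oxLDL minus untreated, on the log2(peaks + 0.5) scale. The difference between the KO effects was -0.53 (SE 0.0792). Untreated KO and WT counts were equal, so the averaged differences come from the KO oxLDL libraries. These counts chose Kdm1a, so the values and their standard errors are a description and not a test. KO minus WT turned to 0.18 when all peaks with a score of at least 50 were counted in place of lists of equal length.

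The genes whose peak counts moved most like those of Kdm1a were Riok2 (r = 0.9), Lix1 (0.838), Ffar1 (0.827), Abo (0.826) and Bcr (0.824). These are Pearson correlations over 12 libraries of log2(peaks + 0.5) in equal-length lists, centred within each cohort, among 16438 genes, and are given as a description. Riok2 and Lix1 have overlapping neighbourhoods, so they share peaks. Of the other corepressor genes, Hdac1 was at 0.412, Sin3a at 0.121, Ncor1 at 0.09, Hdac3 at 0.073, Hdac2 at -0.171 and Rcor1 at -0.226.

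The other 6 genes kept the region at their start in all 12 libraries. Ncor1 and Sin3a each have another annotated start that no region covered, at 62438515 for Ncor1. Of the 16456 genes with a start in the promoter table, 43.8% had it called in 12 of 12, 3.16% in 11 as Kdm1a did, and 37.6% in 0. For Hdac1 and Hdac3 the annotation used gave no strand, and the region meant is at the only gene boundary with a peak. Having a call there was thus built in, and neither gene is among the 16456. The Hdac3 region also covers the boundary of Rell2 and the Ncor1 region that of Pigl, so their peaks cannot be assigned to 1 gene.

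**Figure D3:**
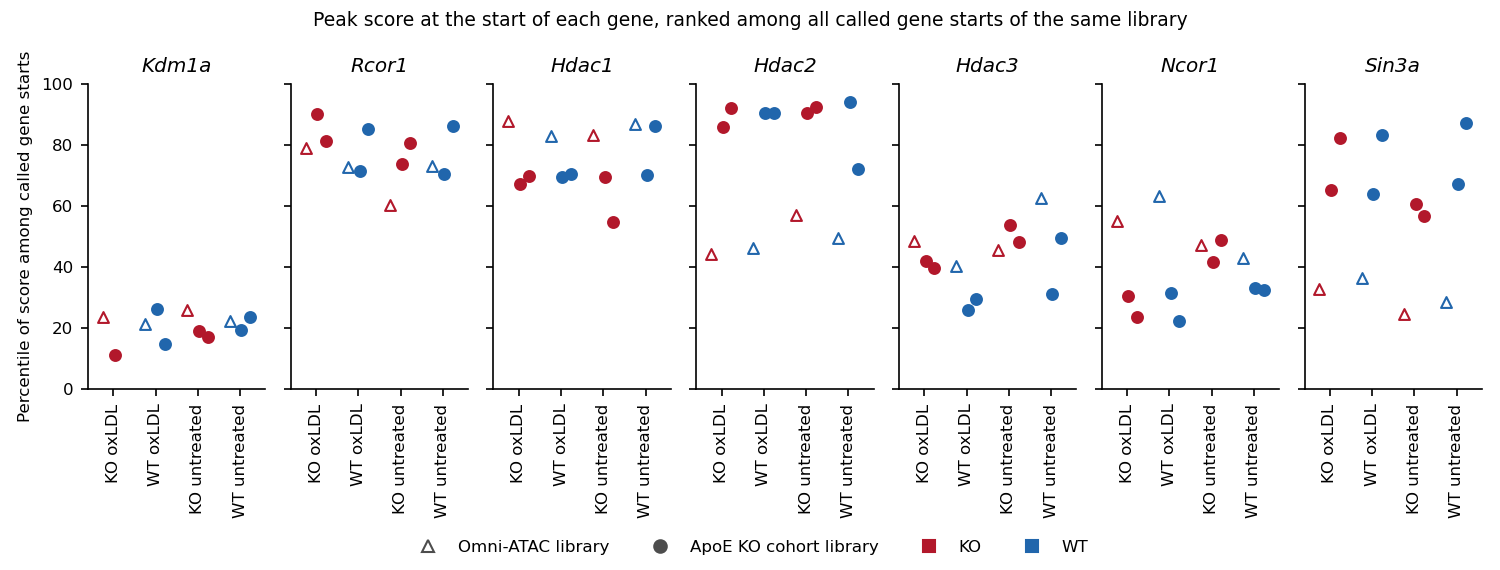
Score of the region at each gene's start as a percentile among all called gene starts of the same library (y axis), by group (x axis). Triangles are Omni-ATAC libraries, circles are ApoE KO cohort libraries, red is KO and blue is WT. Kdm1a is low in all 11 libraries that have it, at 11.2 to 26.4, while Hdac2 and Sin3a are higher in the ApoE KO cohort than in the Omni-ATAC cohort.

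Among called gene starts of the same library, Kdm1a was low throughout, whatever the genotype or treatment. In the ApoE KO cohort it was at the 11.2nd percentile in the KO oxLDL library that had it, against 26.4 and 14.8 in WT oxLDL, and at 19.1 and 17.0 in KO untreated against 19.5 and 23.6 in WT untreated. With the Omni-ATAC protocol it was at 23.8 in KO oxLDL against 21.4 in WT oxLDL, and at 26.0 in KO untreated against 22.2 in WT untreated. The missing peak is thus at a start that ranked low in each other library too. By median over the ApoE KO cohort the order was Hdac2 (90.6), Rcor1 (81.0), Hdac1 (69.8), Sin3a (66.3), Hdac3 (41.0), Ncor1 (32.1) and Kdm1a (19.1). The ranges of neighbours in this order overlapped, except those of Sin3a (56.9 to 87.5) and Hdac3 (26.0 to 53.8). In the Omni-ATAC cohort it was Hdac1 (85.1), Rcor1 (73.2), Ncor1 (51.2), Hdac2 (47.9), Hdac3 (47.0), Sin3a (30.8) and Kdm1a (23.0). There the ranges of Hdac1 and Rcor1 and those of Hdac3 and Sin3a did not overlap, and those of Sin3a (24.6 to 36.5) and Kdm1a (21.4 to 26.0) did.

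Rcor1, the CoREST scaffold, lies at chr12:111039367-111115902 with no other protein-coding gene within 50 kb. It had 27 regions, of which the outermost (chr12:111164423-111167281) reaches past the window to the boundary of Traf3, a signalling adaptor gene, and was called in 11 libraries. Of the 27, 4 were called in all 12 libraries: the start, 1 inside the gene and 2 in the flanks. On the ranking among the 17343 regions called in every library, the start (chr12:111038261-111040404) stood at 93.0 and 85.0 in KO oxLDL of the ApoE KO cohort, against 79.7 and 90.9 in WT oxLDL, and at 77.3 and 85.4 in KO untreated, against 79.4 and 90.6 in WT untreated libraries. Among the Omni-ATAC libraries it stood at 78.7 in KO oxLDL against 74.2 in WT oxLDL and at 45.9 in KO untreated against 69.6 in WT untreated. KO and WT overlapped in the ApoE KO cohort, where the 8 summits all lay 146 to 154 bp upstream of the start, inside the sequence shown. The fitted KO minus WT difference was -3.18 points (SE 4.08, limma adjusted p = 0.746), and oxLDL minus untreated was 8.88 points (SE 4.08, adjusted p = 0.517).

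Hdac2, the deacetylase that pairs with HDAC1 in these complexes, lies at chr10:36974297-37001889 and had the fewest regions, 2, with no other protein-coding gene within 50 kb. Its start (chr10:36973929-36975506) stood at 89.3 and 94.3 in KO oxLDL of the ApoE KO cohort, against 94.1 and 94.4 in WT oxLDL, and at 93.1 and 95.0 in KO untreated, against 96.5 and 79.4 in WT untreated. With the Omni-ATAC protocol it was at 33.8 in KO oxLDL against 40.9 in WT oxLDL, and at 41.6 in KO untreated against 39.1 in WT untreated. The cohorts did not overlap at this start, and within each the genotypes lay close together. The cohorts differ in protocol, storage, peak caller and stated ApoE status, which cannot be told apart here. KO minus WT was 0.451 points (SE 4.04, limma adjusted p = 0.972).

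Sin3a, the scaffold of another HDAC1 and HDAC2 complex, lies at chr9:57071991-57128368, near Ptpn9, Man2c1, Neil1 and Commd4. It showed the same shift between cohorts. Its start (chr9:57075248-57077271) stood at 69.7 and 86.0 in KO oxLDL of the ApoE KO cohort, against 73.1 and 89.7 in WT oxLDL, and at 62.5 and 60.5 in KO untreated, against 76.8 and 91.5 in WT untreated. In the Omni-ATAC cohort it was at 19.1 in KO oxLDL against 28.0 in WT oxLDL and at 6.5 in KO untreated against 12.8 in WT untreated. The KO value was below the WT value in both Omni-ATAC pairs, and below both untreated WT values in the untreated ApoE KO cohort. For such an order no share over all regions was computed. The fitted difference of -11.3 points (SE 6.39, limma adjusted p = 0.415) did not pass. Of its 14 regions, 4 were in all 12 libraries, and the one with the highest mean percentile was not at Sin3a but at the boundary of Neil1. No region covered a second annotated start at position 57072040, although a region from 57072645 to 57074066 just inside the gene was called in all 12.

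Hdac1 lies at chr4:129516104-129542646 among 7 other genes (Bsdc1, Tssk3, Fam229a, Marcksl1, Lck, Fam167b and Eif3i), and 6 of its 19 regions are at a boundary of one of them. Its start (chr4:129541808-129543264) stood at 71.9 and 74.1 in KO oxLDL of the ApoE KO cohort, against 78.1 and 80.5 in WT oxLDL, and at 72.7 and 58.3 in KO untreated, against 79.0 and 90.5 in WT untreated. All 4 KO libraries of this cohort lay below all 4 WT libraries. Among the Omni-ATAC libraries it was at 88.2 in KO oxLDL against 85.0 in WT oxLDL, the other way round, and at 76.2 in KO untreated against 85.8 in WT untreated. The fitted difference was -9.58 points (SE 3.71, unadjusted p = 0.0173, limma adjusted p = 0.227) and did not pass.

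Hdac3, the catalytic partner of NCOR1, lies at chr18:37936971-37955015 near Diaph1, Rell2, Fchsd1 and Arap3 and had 25 regions. Its start (chr18:37954480-37955935) stood at 40.6 and 36.8 in KO oxLDL of the ApoE KO cohort, against 27.5 and 37.1 in WT oxLDL, and at 52.9 and 49.8 in KO untreated, against 36.8 and 55.5 in WT untreated. With the Omni-ATAC protocol it was at 39.5 in KO oxLDL against 33.3 in WT oxLDL and at 27.7 in KO untreated against 56.1 in WT untreated. Genotypes overlapped, and KO minus WT was 0.173 points (SE 6.88, limma adjusted p = 0.995). Its best-scored region was in the flank at the boundary of Diaph1, which encodes a formin that builds actin filaments (chr18:37934476-37935872). That region stood at 68.4 and 62.7 in KO oxLDL, against 83.0 and 74.9 in WT oxLDL, and at 67.5 and 75.5 in KO untreated, against 88.1 and 88.1 in WT untreated of the ApoE KO cohort. In the Omni-ATAC cohort it was at 63.8 in KO oxLDL against 71.3 in WT oxLDL and at 54.6 in KO untreated against 77.3 in WT untreated. KO was below WT of the same treatment in each cohort, by 15.0 points in the fit, yet KO untreated replicate 2 lay above WT oxLDL replicate 2. This was the smallest p of the 17 regions tested (estimate -15.0, SE 4.14, unadjusted p = 0.00157, limma adjusted p = 0.12), and it did not pass. The share of all regions with KO below WT within each treatment was not computed.

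Ncor1, the scaffold that activates HDAC3, lies at chr11:62315663-62457414 near Adora2b, Zswim7, Ttc19 and Pigl and had 18 regions. Its start (chr11:62456514-62458937) was the widest of the 7 in the Omni-ATAC cohort, at 2251 bp in KO oxLDL against 2362 bp in WT oxLDL and 2424 bp in KO untreated against 2375 bp in WT untreated. It stood at 25.2 and 15.1 in KO oxLDL of the ApoE KO cohort, against 35.1 and 27.3 in WT oxLDL, and at 35.1 and 51.1 in KO untreated, against 40.1 and 31.4 in WT untreated. Among the Omni-ATAC libraries it was at 47.9 in KO oxLDL against 62.7 in WT oxLDL, and at 29.7 in KO untreated against 30.2 in WT untreated. Both KO oxLDL libraries lay below both WT oxLDL libraries, while the untreated ones overlapped. The share of all regions with that order was not computed. KO minus WT over both treatments was -3.75 points (SE 7.42, limma adjusted p = 0.846). The best-scored region near Ncor1 was in the flank, inside Pigl (chr11:62466459-62467213), and stood at 34.1 and 22.2 in KO oxLDL, against 41.2 and 37.5 in WT oxLDL, and at 34.8 and 16.3 in KO untreated, against 51.3 and 67.6 in WT untreated of the ApoE KO cohort. All 4 KO libraries there lay below all 4 WT libraries, although its fitted difference of -15.8 points (SE 7.27, limma adjusted p = 0.306) did not pass.

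**Figure D4:**
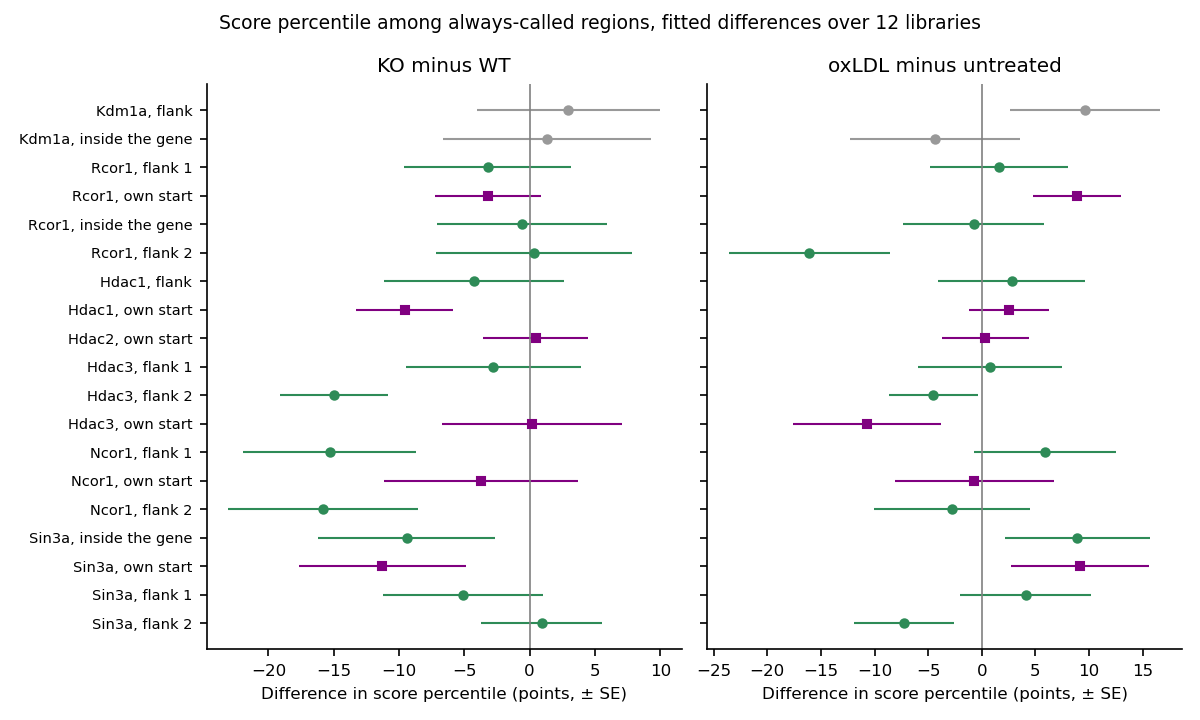
Fitted differences in score percentile, in points with standard errors, for the 19 regions near the 7 genes that were called in all 12 libraries, KO minus WT on the left and oxLDL minus untreated on the right. Squares are the regions at a gene's own start, circles the others, and the 2 Kdm1a regions are grey because they are a description. For KO minus WT, 13 of the 17 regions outside Kdm1a lie left of 0 with estimates from -15.8 to 0.912, and none passed an adjusted p of 0.05. The median over all regions is also left of 0, at -0.534.

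Across these 6 genes, 0 of 17 regions passed in any of the 3 score comparisons. Over all 17343 regions, 7 passed for KO minus WT, all higher in KO (0.0404%), 1 for oxLDL minus untreated (0.00577%) and 0 for the difference between the KO effects (0.0%). At an unadjusted p under 0.05 these were 2628, 1625 and 739 regions. Of the 17, 13 had a KO minus WT estimate below 0 and 4 above, with a median of -3.75 points against -0.534 over all regions. The share of all regions below 0 was not computed, so no tendency of these genes is read from the 13. Regions of 1 neighbourhood are not independent of each other. In the ApoE KO cohort 2 of the 17, the Hdac1 start and the region inside Pigl, were lower in all 4 KO than in all 4 WT libraries, where 4.23% of all regions were. None was higher in all 4 KO (3.85%), and none separated oxLDL from untreated libraries upward (2.04%) or downward (1.72%).

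Width of the always-called regions gave no call either. For KO minus WT 0 of 17343 regions passed (0.0%), with 2539 at an unadjusted p under 0.05, 2533 of them wider in KO, and a median log2 difference of 0.173. With each library's widths centred, an alternative chosen after seeing the data, 0 passed, the median was -0.0193 and 670 of 1188 regions at an unadjusted p under 0.05 were wider in KO. For oxLDL minus untreated 0 passed (0.0%), with 2887 at an unadjusted p under 0.05 and a median of -0.187. Near the 6 genes the KO minus WT estimates of starts ran from -0.11 at Sin3a to 0.32 at Rcor1 and Hdac3 on the log2 scale. In the ApoE KO cohort 0 of the 17 regions were wider in all 4 KO than in all 4 WT libraries (6.52% of all regions) or narrower (0.0519%), and 0 were wider in all 4 oxLDL than in all 4 untreated libraries (0.0519%) or narrower (4.56%).

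Peaks per neighbourhood were tested for the same 6 genes in lists of equal length. Of the 16703 genes tested (mean peak number 1 or more), 0 passed in limma for KO minus WT (0.0%), for oxLDL minus untreated (0.0%) and for the difference between the KO effects (0.0%). At an unadjusted p under 0.05 there were 1539, 1077 and 662 genes. Hdac1 had 3 and 3 peaks in KO oxLDL of the ApoE KO cohort, against 4 and 4 in WT oxLDL, and 3 and 4 in KO untreated, against 5 and 5 in WT untreated. With the Omni-ATAC protocol it had 13 in KO oxLDL against 14 in WT oxLDL and 11 in KO untreated against 12 in WT untreated. KO was thus lower than WT of the same treatment in every pairing, by -0.32 on the log2(peaks + 0.5) scale (SE 0.109, unadjusted p = 0.019, adjusted p = 0.508), which did not pass. This holds in lists of equal length only: the estimate was -0.02 in full lists and -0.02 with all peaks scoring at least 50. In full lists Hdac1 had 7 and 3 peaks in KO oxLDL against 5 and 4 in WT oxLDL of the ApoE KO cohort, and 17 in KO untreated against 16 in WT untreated of the Omni-ATAC cohort. How many of all genes were lower in KO in every pairing was not computed.

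The remaining genes had KO minus WT estimates of 0.13 (Ncor1), 0.06 (Rcor1), -0.02 (Hdac3), -0.06 (Sin3a) and -0.12 (Hdac2), with adjusted p from 0.747 to 0.991. For oxLDL minus untreated the lowest was Hdac3 at -0.19 (SE 0.129, adjusted p = 0.779). Hdac3 had 6 and 5 peaks in KO oxLDL and 5 and 5 in WT oxLDL, against 6 and 7 in KO untreated and 6 and 9 in WT untreated of the ApoE KO cohort. In the Omni-ATAC cohort the oxLDL libraries had more, at 18 in KO oxLDL and 17 in WT oxLDL, against 15 in KO untreated and 16 in WT untreated.

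**Figure D5:**
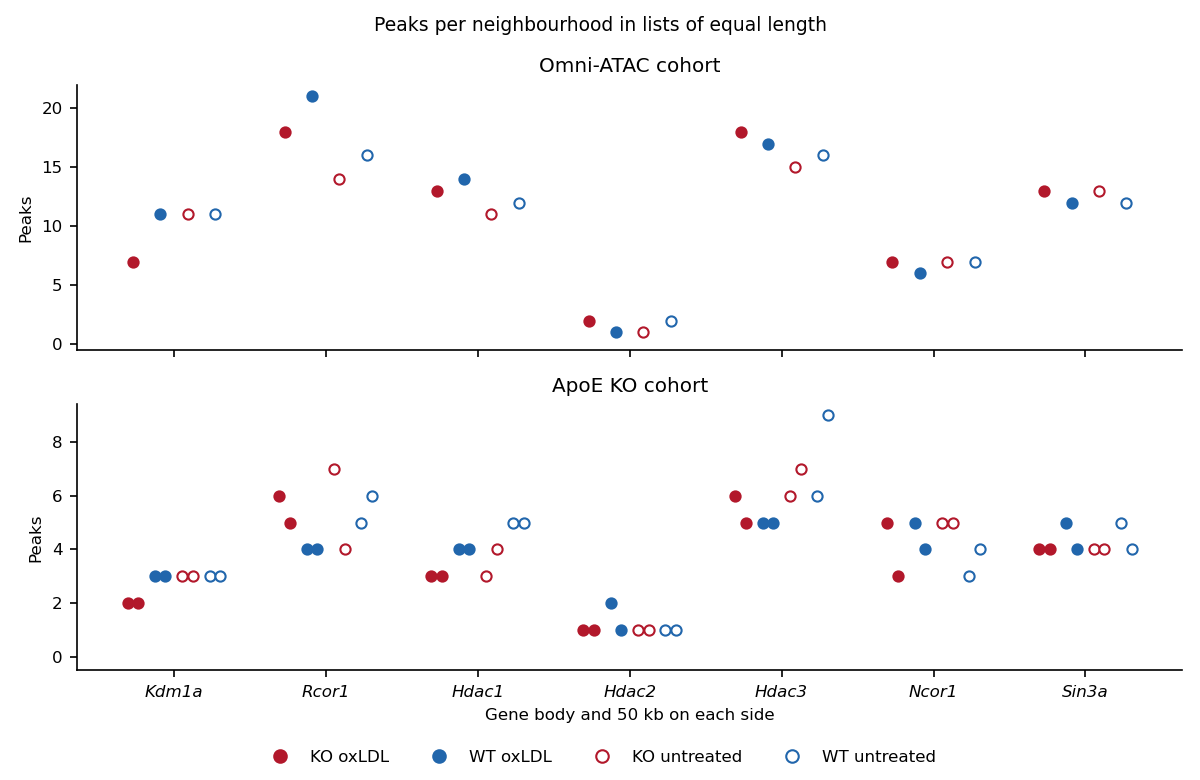
Peaks in the gene body and 50 kb on each side in lists of equal length, for the Omni-ATAC cohort (top) and the ApoE KO cohort (bottom). Each point is 1 library, red for KO and blue for WT, filled with oxLDL and open untreated. At Kdm1a the KO oxLDL libraries have 7 peaks (Omni-ATAC) and 2 and 2 peaks (ApoE KO cohort), below the other groups at 11 and at 3.

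Calls were also compared for presence and absence. Of the 129 regions, 19 were called in all 12 libraries (12% of all regions), 69 in all 4 Omni-ATAC libraries (48.0%), and 84 in no ApoE KO library (60.8%). Of the 69, 19 were also in all 8 ApoE KO libraries (25% of such regions). Near the 7 genes, regions called in more ApoE KO libraries had higher percentiles in the Omni-ATAC cohort. The same was not computed over all regions, so it is not read as a trait of these genes. The 19 regions called in all 8 ApoE KO libraries had a median mean Omni-ATAC percentile of 90.8 (lowest 69.8), the 22 called in 1 to 7 had 73.6, and the 28 called in all 4 Omni-ATAC libraries but none of the others had 39.8 (15.7% of all regions had that last pattern). The Kdm1a start, called in 7 of 8, is among those 22, and why 1 library lacked it was not tested.

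No region near the 7 genes separated genotypes or treatments by calls. With at least 5 of 6 libraries of one condition against at most 1 of 6 of the other, 0 of 129 were KO-specific (0.038% of all regions), WT-specific (0.00138%), oxLDL-specific (0.0%) or untreated-specific (0.0401%). Within the ApoE KO cohort, of the 45 regions near the 7 genes with a peak there (56646 over the genome), 0 were in 4 of 4 libraries against 0 of 4 for KO (0.489%), WT (0.00706%), oxLDL (0.00177%) or untreated (0.413%).

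A wider list of 49 corepressor genes was looked at in the same fit of peaks per neighbourhood, and 45 of them could be tested. It held 13 partners of KDM1A and CoREST (all tested), 11 of NuRD (10 tested), 12 of the SIN3 complex (all tested), 5 of NCoR and SMRT (4 tested) and 8 other deacetylases (6 tested). None passed in either direction for KO minus WT or oxLDL minus untreated. Median KO minus WT estimates were -0.07 for the CoREST partners, -0.11 for NuRD, -0.07 for SIN3, -0.06 for NCoR and SMRT and 0 for the other deacetylases, against -0.03 over all genes. Chd3, a NuRD remodelling ATPase, had the smallest p, at -0.32 (SE 0.0601, adjusted p = 0.352), followed among lower genes by Gatad2a, a NuRD scaffold, at -0.17 (adjusted p = 0.561). On the other side were Rcor3, a paralogue of Rcor1, at 0.24 (adjusted p = 0.535) and Sap30, a SIN3 subunit, at 0.25 (adjusted p = 0.54). For oxLDL minus untreated the smallest p values were those of Suds3, a SIN3 subunit, at -0.24 (adjusted p = 0.633) and Mta3 of NuRD at -0.16 (adjusted p = 0.755) among lower genes. Hmg20b of the CoREST complex was at 0.25 (adjusted p = 0.647) and Chd3 at 0.13 (adjusted p = 0.755) among higher ones.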

How the data were processed

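Sequencing was 150 bases from both ends, per the labels' protocols. The submitters' processing notes name Bowtie2 2.3.4.1, SAMtools 1.2, Picard, MACS2, MACS3 and bedtools 2.28.0, Trim Galore with cutadapt, FastQC, and the build mm10. Any shift of reads for the transposase or removal of duplicates is not given in the sources used here. Each library has its own deposited peak list, called without pooling, in which the authors' caller score is 13 or more. The narrow peak lists of the ApoE KO cohort add the authors' fold enrichment and deposited -log10 p and -log10 q, which were not needed here. With no reads in the lists, depth is unknown and intervals that rest on it are left out.

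Peaks were ranked by score within each library, ties in equal-length lists being broken at random with a fixed seed. Peaks overlapping by 1 bp or more were merged across libraries. The following were fitted with limma 3.58.1 (R 4.3.3, trend, two-sided, Benjamini-Hochberg over all features): log2(peaks + 0.5) per neighbourhood, the score percentile among the 17343 regions called in all 12 libraries, and log2 of the covered length of those regions. The model had genotype-by-treatment groups and cohort over all 12 libraries. It was also run on simulated data with known changes and independent noise. That checks the code, and the noise was not matched to the spread between these libraries. The rule for named items took every gene, its start region, its best-scored region, regions near Kdm1a absent from KO oxLDL libraries, the 5 genes most like Kdm1a and, of the wider list, the 2 genes per direction with the smallest p. Genes and lists were chosen with earlier results of these data known. Python 3.11.15 with numpy 2.4.6, pandas 2.3.3 and matplotlib 3.10.9 did the rest. KO oxLDL replicate 1 and both WT untreated libraries of the ApoE KO cohort carry the mark L001 in their file names, of unstated meaning, and fits were repeated without them. This and other alternatives are given in the closing section.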

Additional observations from a re-analysis of the deposited data

How the results depend on the processing

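No gene or region tested near the 6 genes passed an adjusted p of 0.05 under any alternative. Over all genes, peaks per neighbourhood gave 0 calls for each comparison, but 498 (KO minus WT), 436 (oxLDL minus untreated) and 421 (difference between the KO effects) in the ApoE KO cohort alone, 16, 16 and 14 without the 3 libraries with L001 in the file name, and 4 for oxLDL with a 10 kb window. For score, 7 calls for KO minus WT became 154 with normal scores, 1 with percentiles of the whole library, 0 in the ApoE KO cohort alone, 0 without the L001 libraries and 3 with the replicate block; 1 for oxLDL became 11, 0, 0, 0 and, with the block, 1. The cause was not tested. Leaving out 1 library at a time gave 0 to 97, 0 to 46 and 0 to 53 genes, with the most without Omni-ATAC KO oxLDL, 1 to 146 regions (146 without that library) and 0 to 3 regions for score, and 0 to 1 for KO minus WT width.

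The sign of these estimates turned. For peaks, KO minus WT: Kdm1a 0.18 at a score of at least 50; Rcor1 -0.19 at 10 kb and -0.11 at 100 kb; Hdac3 0.26 in full lists, 0.26 at a score of at least 50, 0.02 at 10 kb and 0.11 without L001; Ncor1 -0.04 without L001; Sin3a 0.0 in full lists and 0.0 without L001. For oxLDL minus untreated: Rcor1 0.01 (pseudocount 1), 0.12 (10 kb), 0.07 (100 kb) and 0.06 (without L001); Hdac1 0.12 (100 kb) and 0.11 (without L001); Hdac2 -0.04 (without L001); Ncor1 0.01 (100 kb). For start scores, KO minus WT: Rcor1 0.945 on the library percentile and 0.0346 in the ApoE KO cohort alone; Hdac2 -1.24, Hdac3 -5.39 and Ncor1 3.03 without L001, and Ncor1 3.03 on the library percentile. For oxLDL: Hdac1 -0.814 and Hdac2 -1.04 on the library percentile; Hdac2 -1.35 and Ncor1 6.07 without L001. Leaving out 1 library, the peak estimates ran from -0.07 to 0.19 (Rcor1), -0.27 to 0.03 (Hdac2) and -0.09 to 0.08 (Hdac3) for KO, and -0.13 to 0.13 (Rcor1), -0.03 to 0.27 (Hdac2) and -0.11 to 0.07 (Ncor1) for oxLDL. Start scores ran from -5.8 to 0.698 (Rcor1), -2.22 to 2.34 (Hdac2), -3.46 to 4.76 (Hdac3) and -7.98 to 1.47 (Ncor1) for KO, and -2.33 to 2.24 (Hdac2) and -5.94 to 3.51 (Ncor1) for oxLDL.

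Deviations of libraries with the same replicate number correlated at -0.138 to 0.081, which gave no sign of pairing by number. With 2 libraries a group, this cannot show whether libraries share an animal or culture. The replicate block gave 0 genes in each peak comparison. Peak lists show presence over a caller's threshold, so a missing peak does not by itself show closed chromatin.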
